A study of Mus musculus with 3 samples.

Results

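The IL-6 family is described here through 10 genes: the ligands *Il6*, *Lif*, *Osm* and *Il11*, the receptor chains *Il6ra*, *Il6st*, *Lifr* and *Osmr*, the transcription factor *Stat3* and the feedback inhibitor *Socs3*. The genes were chosen by symbol, and all 10 are among the 32285 genes counted in the files. Single-cell RNA sequencing counted transcript molecules in each cell, by unique molecular identifier (UMI), in mouse flexor digitorum longus (FDL) tendons, in 1 library per group, each from 16 pooled tendons of male and female mice. The study asked how depletion of Scleraxis-lineage cells and natural aging change the cells of the tendon. The 6 M WT library (WT) is from Scx-Cre-; DTR F/+ mice and the 6 M DTR library (DTR) from Scx-Cre+; DTR F/+ littermates, both given 5 daily injections of diphtheria toxin (DT). The labels give an age of 3 months for both, which the study's methods give as the age at injection, with harvest at 6 months. Scx-Cre acts through development in every cell of the Scleraxis lineage, so that DT can kill any of their descendants that carry the receptor DTR, and WT and DTR both carry the DTR allele. The 21 M B6 library (B6) is from C57BL/6J mice aged 21 months with no transgene and no DT, so age, genotype and toxin cannot be told apart in a comparison with it. WT tendons were digested for 120 min and those of DTR and B6 for 90 min. Digestion time thus cannot be told apart from the groups in a comparison with WT either. With no replicate libraries, no difference was tested, and all intervals below are exact 95% intervals for counting error only.

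IL-6 family ligands signal through a shared receptor chain, gp130, encoded by *Il6st*, which each ligand joins to a partner: IL-6 through the IL-6 receptor (*Il6ra*), leukemia inhibitory factor (*Lif*) through the LIF receptor (*Lifr*), and oncostatin M (*Osm*) through the oncostatin M receptor (*Osmr*). The receptors activate JAK kinases, which phosphorylate STAT3, and STAT3 switches on *Socs3*, whose product binds gp130 and JAK and ends the signal. In connective tissue, fibroblasts and vessel wall cells are known sources of IL-6, macrophages are a known source of oncostatin M, and fibroblasts respond to it.

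The region before the start of *Socs3* is shown because it holds a STAT-type motif, and that of *Il6* because it holds an AP-1-type and a kappa B-type motif, the letters that STAT, AP-1 and NF-kappa B factors are known to prefer. The sequences are the 250 bases before each gene's start in RefSeq, read 5′ to 3′ on the gene's strand in build GRCm38.p6, and capitals mark the motifs.
*Socs3* (chr11:117969367-117969616, minus strand): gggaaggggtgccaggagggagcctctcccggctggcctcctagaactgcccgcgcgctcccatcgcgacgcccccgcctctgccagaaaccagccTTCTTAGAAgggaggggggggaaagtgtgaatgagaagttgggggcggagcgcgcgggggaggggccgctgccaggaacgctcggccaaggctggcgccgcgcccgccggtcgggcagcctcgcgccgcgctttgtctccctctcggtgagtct
*Il6* (chr5:30012864-30013113, plus strand): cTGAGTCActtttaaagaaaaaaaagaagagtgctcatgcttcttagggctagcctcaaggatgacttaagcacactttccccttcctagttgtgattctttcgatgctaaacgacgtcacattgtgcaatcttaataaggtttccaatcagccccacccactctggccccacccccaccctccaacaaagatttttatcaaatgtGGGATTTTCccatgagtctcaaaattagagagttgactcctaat
The STAT-type motif TTCNNNGAA, which begins 154 bases before the start of *Socs3*, was found in no other member among the 9 with an entry, and 7.02% of all 32851 promoters hold it in this window. The AP-1-type motif TGANTCA lies at the far end of the *Il6* window and was also found before *Lif* and before 1 of the entries of *Il11*, and 6.75% of all promoters hold it. The kappa B-type motif GGGANTTTC begins 44 bases before the start of *Il6* and is held by 0.941% of all promoters. Both strands were searched and no match overlapped another motif. These matches describe the letters in this window and not binding.

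Cells were assigned to classes by marker genes: a cell joined a class when it held UMIs of at least 0.4 of the markers of that class and this share was at least 0.2 above that of any other class. Of the 8357, 6554 and 4798 cells that passed the filter in WT, DTR and B6, 89.4%, 85.3% and 84.8% were assigned. Tenocyte-like cells, the tendon fibroblasts that make the matrix, numbered 5393, 2816 and 893. Epitenon-like cells, fibroblasts of the sheath around the tendon, numbered 974, 905 and 2318, and macrophage-like cells 543, 1075 and 478. T and NK-like cells numbered 121, 308 and 77, endothelial-like cells 155, 146 and 131, and mural-like cells, which wrap small vessels, 151, 189 and 51. Schwann-like cells numbered 65, 73 and 46, too few in B6 for a comparison of libraries. They are not described by class, but those of WT and DTR enter the correlations below. The median tenocyte-like cell held 7 to 8 of 10 tenocyte markers and 3 epitenon markers. Between 6.08% and 12.3% of tenocyte-like and 15.6% to 31.4% of epitenon-like cells lay near the limits of the gate. The median depth of tenocyte-like cells was 12923, 12431 and 11103 UMIs. No more than 76 cell barcodes were shared by any pair of libraries. Of the filtered cells, 61.1%, 32.7% and 45.1% were called female from sex-linked transcripts, so the mix of sexes moved with the groups.

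*Il6*, the ligand that gives the family its name, was highest in mural-like cells and next in endothelial-like or epitenon-like cells in every library, among these 6 classes. Levels are given as CPM, the share of a gene in all UMIs of its class and library on the usual scale of that name. In mural-like cells, *Il6* (ENSMUSG00000025746) reached 3765 CPM in WT, 3862 CPM in DTR and 2699 CPM in B6. The counting intervals of the 6 M libraries overlapped, and B6 lay below both, from 51 cells, although its log2 ratio to WT was 0.22 among female cells. Endothelial-like cells had 636 CPM, 516 CPM and 704 CPM. Epitenon-like cells had 425 CPM (414 to 435) in WT, 169.7 CPM (163 to 176.5) in DTR and 917 CPM (907 to 927.5) in B6. Epitenon-like cells thus lay below endothelial-like cells in both 6 M libraries and above them in B6. In tenocyte-like cells, *Il6* had 119 CPM (116 to 121), 73.9 CPM (71.2 to 76.7) and 355 CPM (344 to 366).

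Both fibroblast classes therefore had the same order of libraries for *Il6*, with B6 highest and DTR lowest. The ratio of B6 to WT was 2.99 (2.88 to 3.11) in tenocyte-like cells and 2.16 (2.104 to 2.22) in epitenon-like cells, while that of DTR to WT was 0.623 (0.597 to 0.650) and 0.3996 (0.381 to 0.419). In epitenon-like cells the second ratio differed between female and male cells: on the log2 scale it was −1.96 among female cells and −0.71 among male cells, compared with −1.32 among all. After each cell had been thinned to 2000 UMIs, 9.12% (8.37 to 9.92), 6.64% (5.75 to 7.62) and 20.6% (18.0 to 23.4) of tenocyte-like cells held an *Il6* UMI. Without thinning the shares were 23.2%, 17.4% and 42.2%. In tenocyte-like cells most *Il6* UMIs came from few cells: the 10% of cells with the most held 89.9%, 92.4% and 77.0% of them. In mural-like cells, where *Il6* was highest, the top 10% of cells held 44.5%, 57.4% and 43.4%.

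RNA freed from broken cells can add UMIs to cells that do not express a gene. T and NK-like cells, which should hold little *Il6*, were positive in 3.31%, 2.60% and 2.60% after thinning, at median depths of 9961, 7970.50 and 9965 UMIs. Macrophage-like cells, at median depths of 16235, 13253 and 13805 UMIs, were positive in 2.58% and 2.14% in WT and DTR, at or below that background, and in 6.90% (4.80 to 9.56) in B6, an interval that overlaps that of T and NK-like cells (0.316 to 9.07). Macrophage-like *Il6* was 13.4 CPM, 11.45 CPM and 46.4 CPM, beside 229 CPM, 182 CPM and 698 CPM over all filtered cells of the same libraries. Macrophage-like *Il6* was therefore not told apart from background, although it was 3.47 times as high (2.81 to 4.31) in B6 as in WT. In T and NK-like cells that ratio was 1.92 (1.01 to 3.71). The B6 background rests on 2 positive cells of 77, too few for that share to be known closely.

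**Figure D1:**
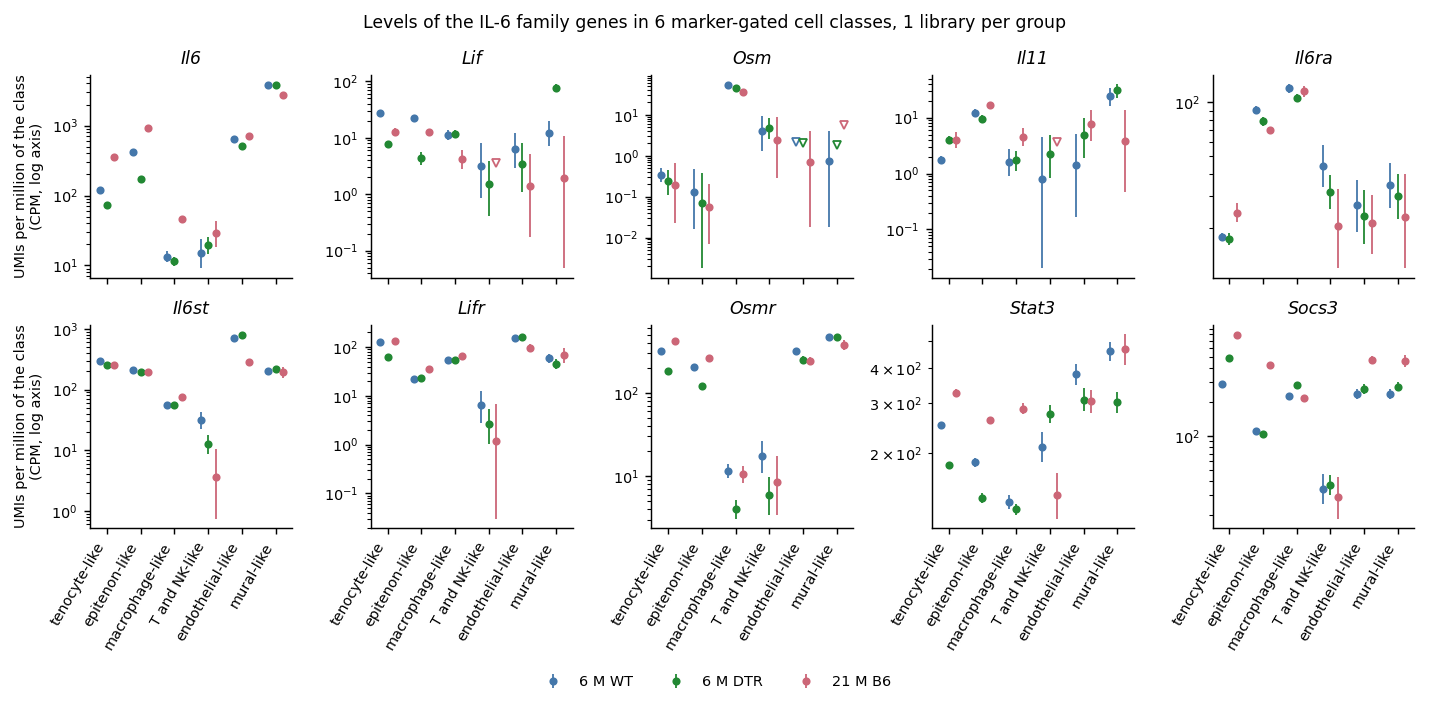
Levels of the 10 genes in 6 cell classes, as CPM on a log axis whose range differs between panels, with 1 point per library and bars for the 95% counting interval; hollow triangles stand for a count of 0, drawn at the level of 3 counts. *Il6* is highest in mural-like cells, *Osm* and *Il6ra* in macrophage-like cells, and *Socs3* of tenocyte-like cells steps up from WT (291 CPM) to DTR (492 CPM) and B6 (791 CPM).

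*Lif*, a ligand that acts through LIFR and gp130, was lower in tenocyte-like cells of both other libraries than in those of WT. Tenocyte-like cells had 28.1 CPM (26.9 to 29.4) in WT, 7.83 CPM (6.955 to 8.78) in DTR and 12.85 CPM (10.8 to 15.2) in B6. The ratio to WT was 0.279 (0.245 to 0.315) in DTR and 0.457 (0.382 to 0.544) in B6. Among male cells the first was −1.23 on the log2 scale and among female cells −1.81, compared with −1.84 among all cells. Epitenon-like cells had 22.1 CPM, 4.33 CPM and 12.9 CPM, in the same order of libraries. *Lif* was sparse: a UMI was found in 630 of 5393, 118 of 2816 and 56 of 893 tenocyte-like cells. In macrophage-like cells, *Lif* was 11.4 CPM, 11.7 CPM and 4.165 CPM (2.79 to 5.98, from 29 UMIs), and no thinned T and NK-like cell was positive, which allows shares of cells with a UMI of up to 2.48%, 0.974% and 3.90%, taken as 3 counts of the cells in each library. In mural-like cells it had 17 UMIs in WT, 127 in DTR and 1 in B6. The 127 UMIs lay in 21 of 189 cells, and 3 cells held 48.8% of them.

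*Osm*, the ligand of the receptor pair OSMR and gp130, was found mostly in macrophage-like cells. Macrophage-like cells (*Osm*, ENSMUSG00000058755) had 52.4 CPM (47.8 to 57.3), 46.3 CPM (43.0 to 49.9) and 36.8 CPM (32.4 to 41.6) in WT, DTR and B6. Tenocyte-like cells had at most 0.344 CPM and epitenon-like cells at most 0.131 CPM. T and NK-like cells lay between, at 3.98 CPM, 4.85 CPM and 2.42 CPM. Macrophage-like cells made up 6.50%, 16.4% and 9.96% of the filtered cells and held 77.2%, 93.6% and 91.4% of all *Osm* UMIs. In WT, 22 neutrophil-like cells held a further 15 *Osm* UMIs in 7 cells. The WT and DTR levels differed by a ratio of 0.885 (0.787 to 0.996), and male cells and thinned cells gave the opposite sign.

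*Il11*, a ligand with its own receptor chain beside gp130, was low in all classes, and highest in mural-like cells in the 6 M libraries and in epitenon-like cells in B6. Epitenon-like cells had 12.4 CPM (10.7 to 14.3), 9.50 CPM (7.97 to 11.2) and 17.0 CPM (15.6 to 18.4). The ratio of B6 to WT there was 1.37 (1.16 to 1.62), but −0.81 on the log2 scale among male cells and 1.10 among female cells. Mural-like cells had 23.9 CPM, 30.75 CPM and 3.83 CPM, the last from 2 UMIs. Tenocyte-like cells, at 1.76 CPM, 3.955 CPM and 4.03 CPM, stayed below 5 CPM, the minimum level set for a comparison, in all 3 libraries.

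Among the receptors and the 6 classes described, *Il6ra* was highest in macrophage-like cells, and *Il6st* in endothelial-like cells, in every library. *Lifr* was highest in endothelial-like and *Osmr* in mural-like cells in the 6 M libraries, and both were highest in tenocyte-like cells in B6, where the *Osmr* interval of tenocyte-like cells overlapped that of mural-like cells. *Il6ra*, which binds IL-6 itself, had 119.9 CPM (113 to 127), 106 CPM (101 to 111) and 115.5 CPM (108 to 124) in macrophage-like cells. Their ratio to WT was 0.884 (0.818 to 0.956) in DTR and 0.964 (0.879 to 1.06) in B6. Epitenon-like cells had 90.8 CPM, 78.55 CPM and 70.6 CPM, and tenocyte-like cells 17.8 CPM, 17.3 CPM and 24.3 CPM. The level of *Il6ra* in tenocyte-like cells was thus below that in macrophage-like and epitenon-like cells in every library. Endothelial-like cells had 21.2 CPM to 26.8 CPM and mural-like cells 23.0 CPM to 34.8 CPM.

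*Il6st*, the shared chain gp130, differed little between libraries in both fibroblast classes, with ratios to WT of 0.833 to 0.918. Tenocyte-like cells had 302 CPM (298 to 306), 257.5 CPM (252 to 263) and 251 CPM (242 to 261), and epitenon-like cells 210.0 CPM, 193 CPM and 191 CPM. The log2 ratio of B6 to WT in tenocyte-like cells, −0.26, was close to that of the median gene of the class, −0.27, and with TMM factors it was −0.03. Endothelial-like cells had 696.5 CPM (654 to 741), 782 CPM (737 to 829) and 284 CPM (257 to 313.5). Their level in B6 was 0.408 times that of WT (0.363 to 0.459), and the log2 ratio was −0.79 among female and −1.78 among male cells. Macrophage-like cells had 54.9 CPM, 54.9 CPM and 76.8 CPM, with a ratio of B6 to WT of 1.40 (1.24 to 1.585). T and NK-like cells had 31.8 CPM, 12.7 CPM and 3.625 CPM, from 40, 34 and 3 UMIs. In WT 3 cells held 80% of these, and after thinning at most 2.27% of T and NK-like cells were positive in any library.

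*Lifr*, the LIF receptor chain, was lower in tenocyte-like cells of DTR than in those of either other library. Tenocyte-like cells had 129 CPM (126 to 131) in WT, 61.45 CPM (58.95 to 64.0) in DTR and 132 CPM (125 to 139) in B6. The intervals of WT and B6 overlapped, and DTR lay apart with a ratio to WT of 0.477 (0.456 to 0.499). The log2 ratio was −0.66 among female cells and −1.41 among male cells. Epitenon-like cells had 22.6 CPM, 23.0 CPM and 34.9 CPM, so their 6 M levels overlapped. Macrophage-like cells had 54.8 CPM, 55.8 CPM and 66.1 CPM.

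*Osmr*, the receptor chain for oncostatin M, was detected in the structural cells and hardly in leukocytes, the reverse of its ligand. Tenocyte-like cells had 320.5 CPM (316 to 325), 180.5 CPM (176 to 185) and 419.7 CPM (408 to 432), and epitenon-like cells 205 CPM (198 to 212), 122 CPM (117 to 128) and 262.5 CPM (257 to 268). In both classes DTR was lowest and B6 highest, with no overlap of counting intervals. The ratio of DTR to WT was 0.563 (0.548 to 0.579) and 0.597 (0.562 to 0.633), and that of B6 to DTR was 2.33 (2.24 to 2.42) and 2.15 (2.04 to 2.26). Mural-like cells had 472 CPM, 468.5 CPM and 377 CPM. Macrophage-like cells had 11.6 CPM, 4.04 CPM and 10.49 CPM, and after thinning 2.76%, 0.931% and 2.30% of them were positive, beside 2.48%, 0.974% and 1.30% of T and NK-like cells. Their intervals overlapped in each library, so *Osmr* in macrophage-like cells was not told apart from background.

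*Stat3*, the transcription factor below gp130, followed the order of *Osmr* in the fibroblasts. Tenocyte-like cells had 251 CPM (247.5 to 255), 180.3 CPM (176 to 185) and 325 CPM (315 to 336.5), and epitenon-like cells 185 CPM, 138 CPM and 261 CPM. In macrophage-like cells the 6 M libraries overlapped, at 134 CPM (127 to 142) and 126 CPM (121 to 132), while B6 had 287 CPM (274 to 299). That ratio to WT was 2.14 (1.99 to 2.30), and on the log2 scale it was 0.91, below 2-fold, with a mitochondrial limit of 5%. In T and NK-like cells B6 was instead the lowest, at 141 CPM beside 209.9 CPM and 275 CPM.

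*Socs3*, the feedback inhibitor that STAT3 induces, did not share the order of *Stat3* in tenocyte-like cells. Tenocyte-like cells had 291 CPM (287 to 295) in WT, 492 CPM (485 to 499) in DTR and 791 CPM (774 to 808) in B6, with 30.7%, 45.2% and 56.3% of thinned cells positive. All 3 libraries were apart, with ratios to WT of 1.69 (1.66 to 1.73) and 2.72 (2.65 to 2.79). Epitenon-like cells had 112 CPM (107 to 117.5), 104 CPM (99.1 to 109.7) and 429.8 CPM (423 to 437). Here DTR lay close to WT, with a ratio of 0.931 (0.868 to 0.998), and B6 was 3.84 times as high as WT (3.65 to 4.03). Endothelial-like cells had 238 CPM, 260.2 CPM and 475 CPM and mural-like cells 237 CPM, 275.5 CPM and 464 CPM. Both were highest in B6, but among female mural-like cells the log2 ratio of B6 to WT was 0.01. In macrophage-like cells DTR was highest instead, at 227 CPM, 282 CPM and 219.5 CPM.

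Relative to WT, genes that respond within minutes to stress, among them to tissue digestion, were also higher where *Socs3* was higher in the fibroblasts. Among tenocyte-like cells, 12 immediate early genes had a median log2 ratio to WT of 0.51 in DTR and 0.88 in B6, with 12 and 10 of 12 genes higher. Past 2-fold were 0 of them in DTR and 4 in B6, beside 4.42% and 6.32% of all genes. Between B6 and DTR their median was 0.06, where that of all genes was −0.32. There 8 of 12 were higher and 0 past 2-fold, beside 11.2% of all genes. *Socs3* had a ratio of 1.61 (1.57 to 1.65) there. In epitenon-like cells the median between B6 and DTR was 0.56. In tenocyte-like cells *Fos*, a subunit of the transcription factor AP-1, had 1229 CPM, 2278 CPM and 3419 CPM. *Egr1* had 710.4 CPM, 1303 CPM and 1336 CPM in the same cells. In epitenon-like cells the medians were 0.06 and 0.74, and in macrophage-like cells 0.36 and −0.60, against medians of all genes between −0.27 and 0.04 in these 3 classes. In endothelial-like cells they were −0.33 and 0.27, and in mural-like cells 0.07 and 0.43. The part of the stress response in the *Socs3* values was not tested. Digestion time cannot be told apart from the groups in comparisons with WT, whose digestion was the longer, while DTR and B6 shared 90 min.

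**Figure D2:**
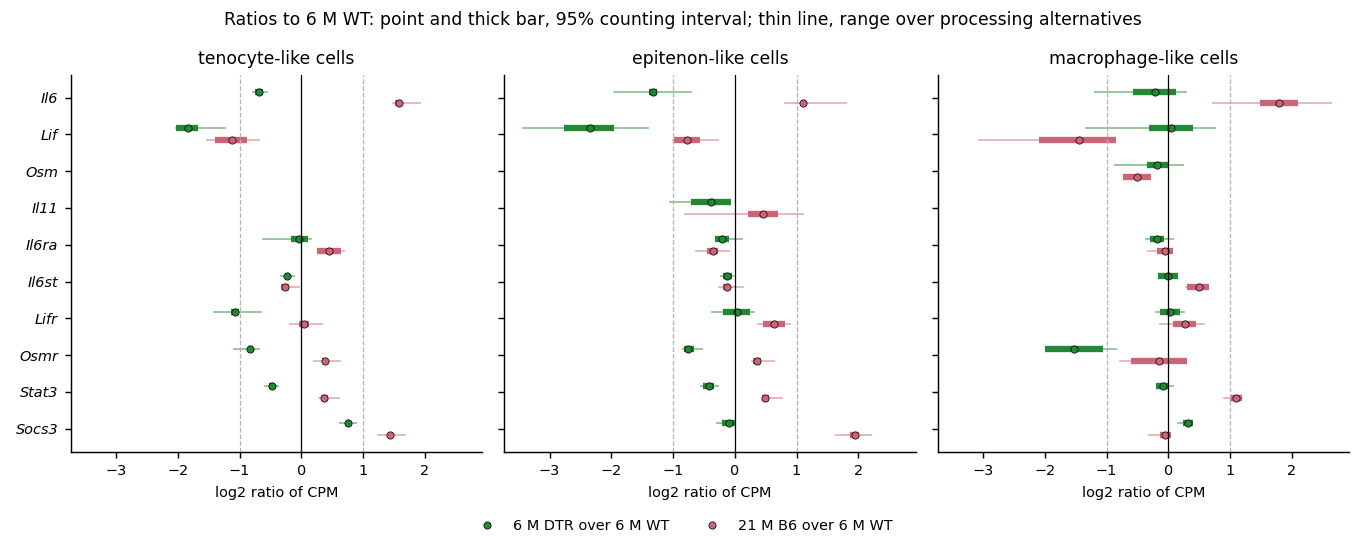
Log2 ratios of CPM to WT for the members with at least 5 CPM in either library, in 3 cell classes; points are the ratios, thick bars the 95% counting interval, thin lines the range over the processing alternatives and dashed lines a 2-fold change. *Il6*, *Osmr* and *Stat3* of both fibroblast classes lie below 0 in DTR and above 0 in B6, while *Lif* lies below 0 in both.

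A change past 2-fold was counted where either library had at least 5 CPM, and the share of all genes past 2-fold is given as the background. In tenocyte-like cells of DTR against WT, 2 of 8 members that reached this level were past 2-fold, *Lif* and *Lifr*, both lower, beside 4.42% of all genes. Against the same WT library, 3 of 8 were past 2-fold in B6, with *Il6* and *Socs3* higher and *Lif* lower, beside 6.32%. Of these, *Lif* stayed past 2-fold in 7 of 11 processing alternatives. Its log2 ratio was −1.13, and −0.68 with a mitochondrial limit of 5%. Between B6 and DTR, 3 of 8 were past 2-fold, *Il6*, *Lifr* and *Osmr*, all higher in B6, beside 11.2%. *Osm* and *Il11* did not reach the level in tenocyte-like cells. These comparisons share libraries and are not independent of each other.

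In epitenon-like cells, 2 of 9 members were past 2-fold in DTR against WT, *Il6* and *Lif*, both lower, beside 2.27% of all genes. In B6 against WT, 2 of 9 were past 2-fold, *Il6* and *Socs3*, both higher, beside 3.57%. Among female cells the log2 ratio of *Il6* in this comparison was 0.81, below 2-fold, while among male cells it was past 2-fold. Between B6 and DTR, 4 of 9 were past 2-fold, beside 6.18%: *Il6*, *Lif*, *Osmr* and *Socs3*, all higher in B6. In macrophage-like cells 1 of 9 was past 2-fold in DTR against WT, beside 2.62%, and 3 of 9 in B6 against WT, beside 6.92%. Between B6 and DTR, 4 of 9 were past 2-fold in macrophage-like cells, beside 7.40%. The first is *Osmr*, and the others are *Il6*, *Stat3* and *Lif*, with *Osmr* in the last. *Il6* and *Osmr* were not told apart from background in these cells, as described above, while *Stat3* was higher and *Lif* lower in B6. *Lif* was itself low there, at 11.4 CPM in WT, 11.7 CPM in DTR and 4.165 CPM in B6. No thinned T and NK-like cell held it, so its background as a share of thinned cells is known only as an upper limit. Without thinning, T and NK-like cells held 4, 4 and 0 *Lif* UMIs in WT, DTR and B6. These counts give 3.18 CPM in WT and 1.49 CPM in DTR. A member that reached the level through 1 library alone had to be higher there, though not by 2-fold. These counts are therefore not those of all members. Of the members counted, *Lif* in epitenon-like cells of DTR was below the level, at 4.33 CPM. In macrophage-like cells, so were *Osmr* in DTR, at 4.04 CPM, and *Lif* in B6, at 4.165 CPM. The median log2 ratio over the members compared in tenocyte-like cells was −0.58 in DTR, where that of all genes was 0.04, and 0.38 in B6, where that of all genes was −0.27. Scaling by TMM factors raised each ratio of B6 to WT by 0.23 in tenocyte-like and 0.27 in epitenon-like cells on the log2 scale, and by 0.03 in macrophage-like cells.

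The mix of cells differed between libraries as well as the levels within classes, and both enter the total of a gene. *Il6* over all filtered cells was 229 CPM in WT and 698 CPM in B6, a ratio of 3.05. The mix was taken here as the share of each class in all UMIs of a library. The class levels of WT with the mix of B6 would give 349 CPM, a ratio of 1.53. Those of B6 with the mix of WT would give 473 CPM, a ratio of 2.07. For *Socs3* the total ratio of B6 to WT was 1.87, beside 0.683 for the mix alone and 2.59 for the levels alone. These parts need not multiply to the total. *Osm* in DTR shows the reverse case, with 5.45 CPM in WT and 8.705 CPM in DTR. The mix alone would give 10.9 CPM in DTR and the levels alone 4.145 CPM, a ratio of 0.760. Markers also differed within the epitenon-like class. *Inmt* was found in 14.4%, 7.29% and 40.7% of its cells in WT, DTR and B6, and *Pi16* in 34.8%, 34.4% and 56.8%. *Krtdap* was instead highest in WT, at 54.2%, 33.15% and 41.5%. The level of a class can thus hold shifts within it, whose part was not tested.

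The class that held most UMIs of a ligand therefore changed. Mural-like cells, 1.81%, 2.88% and 1.06% of the filtered cells, held 5192 of 25982 *Il6* UMIs in WT, and 41.0% in DTR and 3.07% in B6. Epitenon-like cells held 25.0%, 15.6% and 69.6% of them, and tenocyte-like cells 33.2%, 17.6% and 8.25%. Cells outside the 6 classes held 17.8%, 19.6% and 16.1%. The order of tenocyte-like and epitenon-like cells in WT thus holds for assigned cells, and whether it depends on the gate was not tested. For *Lif*, tenocyte-like cells held 70.0%, 35.2% and 15.6% and epitenon-like cells 11.6%, 7.51% and 51.1%. These shares follow the cells that were captured and not the tissue, since digestion and filtering set which cells remained.

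**Figure D3:**
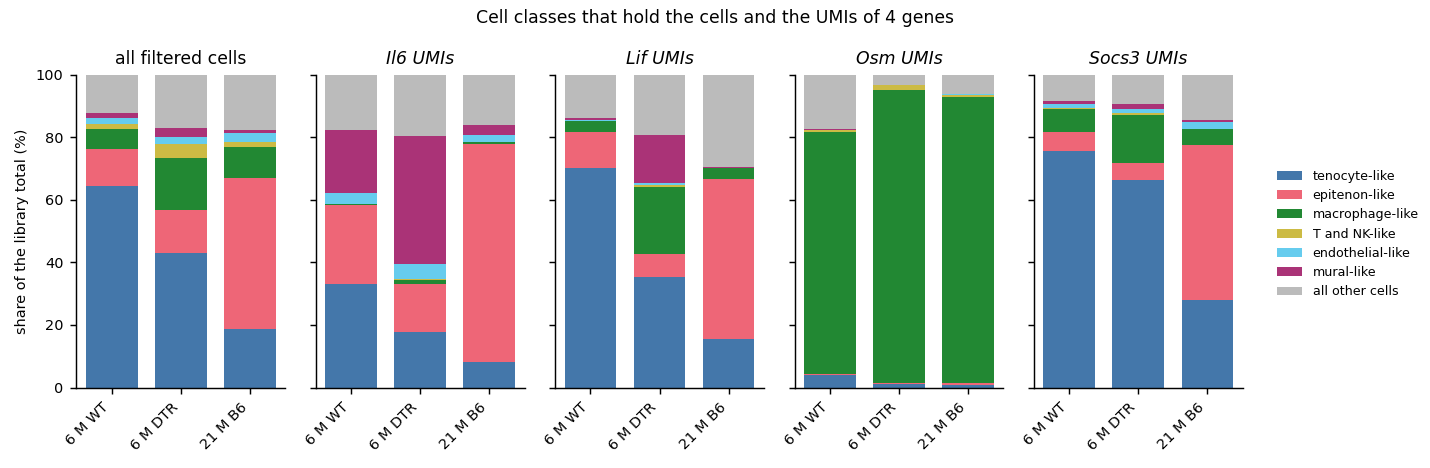
Shares of the filtered cells and of the UMIs of 4 genes by cell class, as stacked bars that add up to 100% of each library; grey stands for all cells outside the 6 classes. Among the 6 classes, the largest for *Il6* is tenocyte-like in WT (33.2%), mural-like in DTR (41.0%) and epitenon-like in B6 (69.6%). Cells outside them hold 17.8% of *Il6* UMIs in WT. Macrophage-like cells hold most *Osm* in every library.

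Cells that held a receptor chain together with gp130 followed the levels of each. After thinning, *Osmr* and *Il6st* were found together in 18.4% (17.4 to 19.5) of tenocyte-like cells in WT, 9.94% (8.86 to 11.1) in DTR and 19.5% (17.0 to 22.3) in B6. The product of the shares of each gene is 17.2%, 9.73% and 18.7%, close to what was found. *Lifr* and *Il6st* were found together in 9.27%, 4.51% and 9.64%, and *Il6ra* and *Il6st* in 1.67%, 1.35% and 1.79%. Tenocyte-like cells with an *Il6* UMI held *Socs3* as often as those without, in 29.9% and 30.8% in WT and 56.5% and 56.2% in B6, with overlapping intervals. In DTR they were 88 of 187 and 1184 of 2629 cells, again with overlapping intervals. In epitenon-like cells the shares with and without an *Il6* UMI were 17.9% and 17.5% in WT, and 23.0% (14.6 to 33.2) and 14.8% (12.4 to 17.4) in DTR, with overlapping intervals. In B6 they were 45.5% (42.1 to 49.0) and 34.2% (31.8 to 36.7), and the intervals did not overlap.

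Other genes of the family and of the JAK-STAT pathway were taken from a list of 30. In tenocyte-like cells, 19 of them reached 5 CPM for DTR against WT, with a median log2 ratio of −0.18 where that of all genes was 0.04. Of these 19, 7 had a higher level in DTR than in WT, and 4.42% of all genes were past 2-fold in either direction. *Cntfr*, the receptor for CNTF, was lower past 2-fold and went from 18.9 CPM to 7.67 CPM, a ratio of 0.405 (0.355 to 0.461). For B6 against WT, 20 reached the level, 2 were higher and 1 lower past 2-fold, and the median was −0.09, beside 6.32% of all genes past 2-fold and a median of −0.27. *Cish*, a feedback inhibitor of STAT5 signals, had a ratio of 4.26 (3.15 to 5.73), *Stat2* one of 3.15 (2.87 to 3.445) and the kinase *Tyk2* one of 0.394 (0.2545 to 0.585). *Cish* had 1.65 CPM in WT and 7.03 CPM in B6, and *Tyk2* 6.19 CPM and 2.44 CPM. Both genes were thus low and reached 5 CPM only through the library where they were higher.

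Genes known as targets of STAT3 numbered 24 in the list, and 22 reached 5 CPM in both fibroblast classes. In tenocyte-like cells of DTR, none was higher and 2 were lower past 2-fold against WT, with a median log2 ratio of −0.08. These 2 encode secreted acute phase proteins: *Saa3*, serum amyloid A3, went from 655 CPM to 168 CPM, and *Lcn2*, lipocalin 2, from 266.5 CPM to 85.55 CPM. In tenocyte-like cells of B6, 4 were higher and 1 lower, with a median of 0.22 where that of all genes was −0.27. The shares of all genes past 2-fold in these comparisons were 4.42% for DTR and 6.32% for B6. The higher ones were *Fgl2* with a ratio of 5.88, the growth regulator *Myc* with 2.89, *Bcl3* with 2.51 and the transcription factor *Cebpd* with 2.09, and the lower one was again *Lcn2*, with 0.210. In these cells *Socs3* was higher in DTR than in WT, while *Saa3* and *Lcn2* were lower.

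In epitenon-like cells, 6 of these targets were lower and 1 higher past 2-fold in DTR, with a median of −0.34, and 6 were higher and 2 lower in B6, with a median of 0.51. Of all genes, 2.27% and 3.57% were past 2-fold there, with medians of 0.01 and −0.26. The lowest ratio was that of *Lcn2* in DTR, 0.0495 (0.0357 to 0.06695), from 62.1 CPM to 3.07 CPM. *Icam1*, an adhesion molecule for leukocytes, went from 357 CPM to 101.5 CPM. *Cebpd* had 593 CPM in WT, 261.5 CPM in DTR and 1789 CPM in B6, the order of *Il6* in the same cells. In macrophage-like cells 0 were higher and 1 lower in DTR, and 2 higher and 4 lower in B6, of 20 that reached the level in each, beside 2.62% and 6.92% of all genes. *Junb* stands in this list and in that of the immediate early genes.

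**Figure D4:**
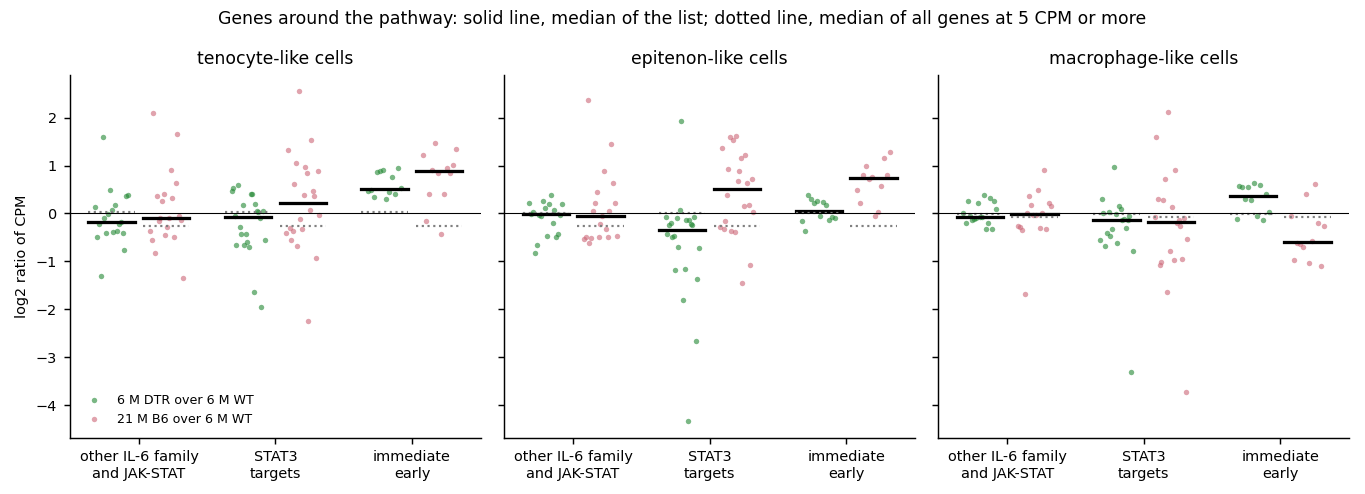
Log2 ratios of CPM to WT for the genes of 3 lists with at least 5 CPM in either library, in 3 cell classes; points are genes, solid lines list medians and dotted lines the median of all genes. Immediate early genes of tenocyte-like cells lie mostly above 0 in DTR (median 0.51) and in B6 (median 0.88), and STAT3 targets of epitenon-like cells lie lower in DTR (median −0.34) than in B6 (median 0.51).

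The genes most like a member were found by Pearson's correlation of log2 CPM over 20 points, each a cell class in a library, among 9925 genes. The points share libraries and classes, so the values describe the pattern over classes and carry no test. For *Il6* these were *Eln* with r = 0.933, *Pcdh19* with 0.924, *Lmbr1* with 0.921, *Ebf1* with 0.911 and *Ebf3* with 0.908. For *Lif* they were *Tma16* with 0.814, *Hectd2* with 0.792, *Cd302* with 0.752, *Ccl2* with 0.751 and *Cyp20a1* with 0.747. For *Socs3* they were *Eif1a* with 0.896, *Sphk1* with 0.893, *Casp4* with 0.892, *Fos* with 0.886 and *Lifr* with 0.877.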

How the data were processed

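The authors made 10x Genomics 3′ libraries and deposited raw UMI counts per gene and barcode; the file headers name Cell Ranger 6.0.1 and the submitters' processing notes 2.1.1. The genome build of the counts is not given in the sources used here. The libraries hold 148149903, 123918145 and 92707026 UMIs in 15536, 16099 and 12273 barcodes. As in the study, a barcode was retained if it held 1000 to 5000 genes and no more than 10% of its UMIs were mitochondrial; 27.6%, 43.1% and 56.5% of barcodes exceeded that limit. The limits of the gate were set after marker counts in the files had been seen. Between 96.6% and 100% of tenocyte-like, epitenon-like, macrophage-like and T and NK-like cells lay in the Seurat cluster of that name. The clusters were named with the markers of the gate, so part of this agreement was built in. In the other direction, the epitenon cluster held 1618, 1490 and 2638 cells in WT, DTR and B6. Of these, 971, 902 and 2273 were assigned as epitenon-like, so the gate left out more of that cluster in the 6 M libraries. Members, class markers and lists were chosen with earlier results of these data known. The genes named are the members, listed genes past 2-fold in tenocyte-like cells (up to 5 each way), and the 5 genes most like *Il6*, *Lif* and *Socs3*; single genes named for epitenon-like cells, and *Fos* and *Egr1*, were chosen after their values were seen. Of the listed genes past 2-fold, 1 is not reported here.

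Counts were summed per class and library, and ratios of CPM have exact conditional binomial, CPM exact Poisson and shares exact binomial (Clopper-Pearson) intervals at 95%. Reads of 1 molecule are merged by UMI, but pooled animals are not replicates. Doublets were kept: scrublet's own threshold marked 2, 7 and 1 cells and so did not work, and the 6% of cells with the highest scores were left out in an alternative instead. Alternatives changed the mitochondrial limit, the gene limit, the gate, the classes (Seurat clusters made without the members), the scaling (TMM), the weight of cells, thinning and the sex of the cells. On simulated counts the step recovered, over the comparisons in tenocyte-like, epitenon-like and macrophage-like cells, 98.5% to 100% of 200 simulated 4-fold changes among 8945 to 9417 genes. These counts varied by counting error alone, with no variation between cells, animals or libraries, and the changes lay well past the 2-fold limit. High recovery was therefore built in, and it checks the arithmetic only. Tools were R 4.3.3 with Seurat 5.3.0 and edgeR 4.0.16 (for TMM only), and Python 3.11.15 with scanpy 1.11.5, scipy 1.17.1, pandas 2.3.3 and numpy 2.4.6.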

Additional observations from a re-analysis of the deposited data

Results flagged for a closer look

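*Lif* moved in opposite directions past 2-fold in different cell classes of the same comparison, and the difference between classes was not tested. For DTR against WT its log2 ratio was −1.84 in tenocyte-like and −2.35 in epitenon-like cells, but 2.64 in mural-like cells. For B6 against DTR it was 1.57 in epitenon-like cells, −1.49 in macrophage-like cells and −5.32 in mural-like cells. The mural-like values rest on 17, 127 and 1 UMIs in WT, DTR and B6, so that the ratio of the last pair is 0.0250 (0.000629 to 0.142), and in female cells alone the mural-like log2 ratio of DTR to WT was 0.49. For B6 against DTR the macrophage-like value was −0.08 in female cells and −2.54 in male cells, and the epitenon-like value was 2.66 in female cells and 0.67 in male cells.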

How the results depend on the processing

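Under 11 alternatives, 143 ratios of members were recomputed. Of the 100 beyond counting error, 21 had the opposite sign under at least 1 alternative. Of the 36 past 2-fold, 15 stayed past 2-fold under every alternative that gave a value, and 3 changed sign, all in T and NK-like cells: *Il6st* in DTR against WT had a log2 ratio of 0.36 without marked doublets and 0.37 in female cells (−1.33 with all), *Osmr* in the same comparison 0.71 and 1.69 (−1.55 with all), and *Osmr* in B6 against WT 1.33 without marked doublets (−1.05 with all). The number of members past 2-fold in DTR against WT changed by more than 1.5 times in some settings. In tenocyte-like cells it was 1 in female cells (2 with all), in epitenon-like cells 1 in male cells (2 with all), and in macrophage-like cells 2 in female cells, 0 in male cells and 2 in Seurat clusters (1 with all). The cause was not tested. The cluster of endothelial and mural markers could not be named, so the cluster alternative gives no value for those classes. The alternative of leaving out doublets called by scrublet was replaced by the 6% with the highest scores, chosen after seeing the data. By Spearman's rho the genes most like *Il6*, *Lif* and *Socs3* were partly others. There *Pcdh19* led for *Il6* and *Lag3* for *Socs3*, while *Tma16* led for *Lif* by both measures. No paired analysis was possible because each group is 1 library. Depth limits *Lif*, *Osm* and *Il11* most, and no more than 189 cells stand behind each endothelial-like and mural-like value.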
